A study of Mus musculus with 4 samples.

Results

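Among the transcription regulators of epidermal differentiation and the differentiation gene Mab21l4, Mab21l4 was 4.77-fold lower in back skin of mice with a keratinocyte knockout of Adam17 (cKO) than in control skin. The other measured members differed by -0.50 to 0.20 on the log2 scale. The members were 9 named genes, and every array probe carrying a member's name in the files was taken, including the probe for Mab21l4 under its older name 2310007B03Rik. Of the 9, 8 had a probe and passed the filter on dim probes, out of 15550 genes tested in all, and the level of Grhl3 was not analysed here. The 8 genes were read by 12 probes, of which 11 were well above background on all 4 arrays. The members were chosen by their cKO and control levels on these same arrays, together with their known roles. Their differences between the genotypes are therefore a description, with no test.

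The skin came from 10-day-old mice of a mixed 129Sv and C57BL/6 background, 2 cKO animals and 2 control littermates, 1 of each from each of 2 litters. The cKO animals were Adam17 flox/flox and carried Cre under the keratin 14 promoter (Krt14-Cre), which is active in the basal epidermis and the outer hair follicle. The controls lacked Krt14-Cre, and the labels do not say whether they held 1 or 2 floxed alleles. As no animal carried Cre with intact Adam17, an effect of Cre and the loss of ADAM17 cannot be told apart. ADAM17 is a membrane protease that frees ligands of the EGF receptor and other surface proteins. Levels are log2 processed signals with the 75th percentile of the array subtracted, and all genotype differences are cKO minus control on that scale. On this scale Adam17 read -0.14 and -0.12 in cKO skin, against 0.44 and 0.37 in control skin, or 69.0% of control (adjusted p = 0.114, limma), and its 2 probes differed by -0.54 and -0.55. The labels do not name the deleted exon, so these probes may lie elsewhere in the gene and then check nothing. In whole skin, fewer cells of a type and less RNA per cell cannot be told apart.

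As background, keratinocytes divide in the basal layer and then move outward through the spinous and granular layers while they build the cornified barrier. In mice, p63 (from Trp63) is needed to form a stratified epidermis, and KLF4, the grainyhead factors GRHL1 and GRHL3, OVOL1, GATA3 and BLIMP1 (from Prdm1) each act at later steps. ZNF750, the human counterpart of Zfp750, is induced by p63 and activates late genes in human keratinocytes. MAB21L4 is a Mab-21 domain protein of differentiating keratinocytes, and in human squamous cancer cells it binds CACUL1 and restrains the receptor kinase RET.

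To show the start region of the member with the largest difference, the 250 bases before annotated starts were searched for the letters of 6 motifs on both strands (RefSeq, build GRCm38.p6). Of the members, 6 had at least 1 such window, 8 windows in all. The AP-1 letters TGANTCA, bound by FOS and JUN proteins, stood in 1 of the 2 windows of Mab21l4 and in the window of Prdm1, and in 6.75% of all 32851 windows. These 2 windows are printed 5′ to 3′ on the minus strand with the AP-1 letters in capitals, Mab21l4 at chr1:93160949-93161198 and Prdm1 at chr10:44458749-44458998.
Mab21l4: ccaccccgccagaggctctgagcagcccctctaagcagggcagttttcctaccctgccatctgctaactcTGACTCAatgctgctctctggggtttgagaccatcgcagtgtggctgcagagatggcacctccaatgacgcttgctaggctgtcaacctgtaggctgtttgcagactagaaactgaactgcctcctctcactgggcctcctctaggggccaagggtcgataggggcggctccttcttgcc
Prdm1: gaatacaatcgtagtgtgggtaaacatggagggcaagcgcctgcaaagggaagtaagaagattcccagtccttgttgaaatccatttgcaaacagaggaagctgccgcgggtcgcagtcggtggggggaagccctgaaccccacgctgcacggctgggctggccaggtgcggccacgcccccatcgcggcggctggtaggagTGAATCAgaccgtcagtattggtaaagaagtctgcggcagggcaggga
The match began 180 bases before the start in Mab21l4 and 48 bases before it in Prdm1. Windows of Fgf5, Trpv6, Slc30a3, Dio3 and Chrna4, the genes with profiles nearest to that of Mab21l4 (described below), held no AP-1 letters. The KLF letters CACCC were in both Mab21l4 windows and in 52% of all windows. For ZNF750, the letters CCNNAGGC, known from human cells, were in 1 Mab21l4 window and in 20.4% of all. The palindrome AACCGGTT of grainyhead factors was in none of the members' windows and in 0.116% of all. The OVOL1 and GATA motifs, searched as CCGTTA and AGATAA, were likewise in none of them and in 2.18% and 9.99% of all. A match is a run of letters, not a binding site.

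Mab21l4 was read by 1 probe on chromosome 1 (95048226 to 95048285, mm9, minus strand). Its level was 2.66 and 2.79 in the cKO arrays, against 4.99 and 4.96 in the control arrays. Both cKO arrays lay far below both controls, and the groups did not overlap. The processed signals behind these levels were 4866 and 5366 in cKO skin and 23851 and 24438 in control skin. The cKO mean was 2.72 ± 0.09 and the control mean 4.98 ± 0.02 (SD, n = 2 each), a difference of -2.25 ± 0.09 (SE). The level in cKO skin was 4.77-fold lower. It was 19.8% of the littermate control in litter 1 and 22.1% in litter 2.

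**Figure D1:**
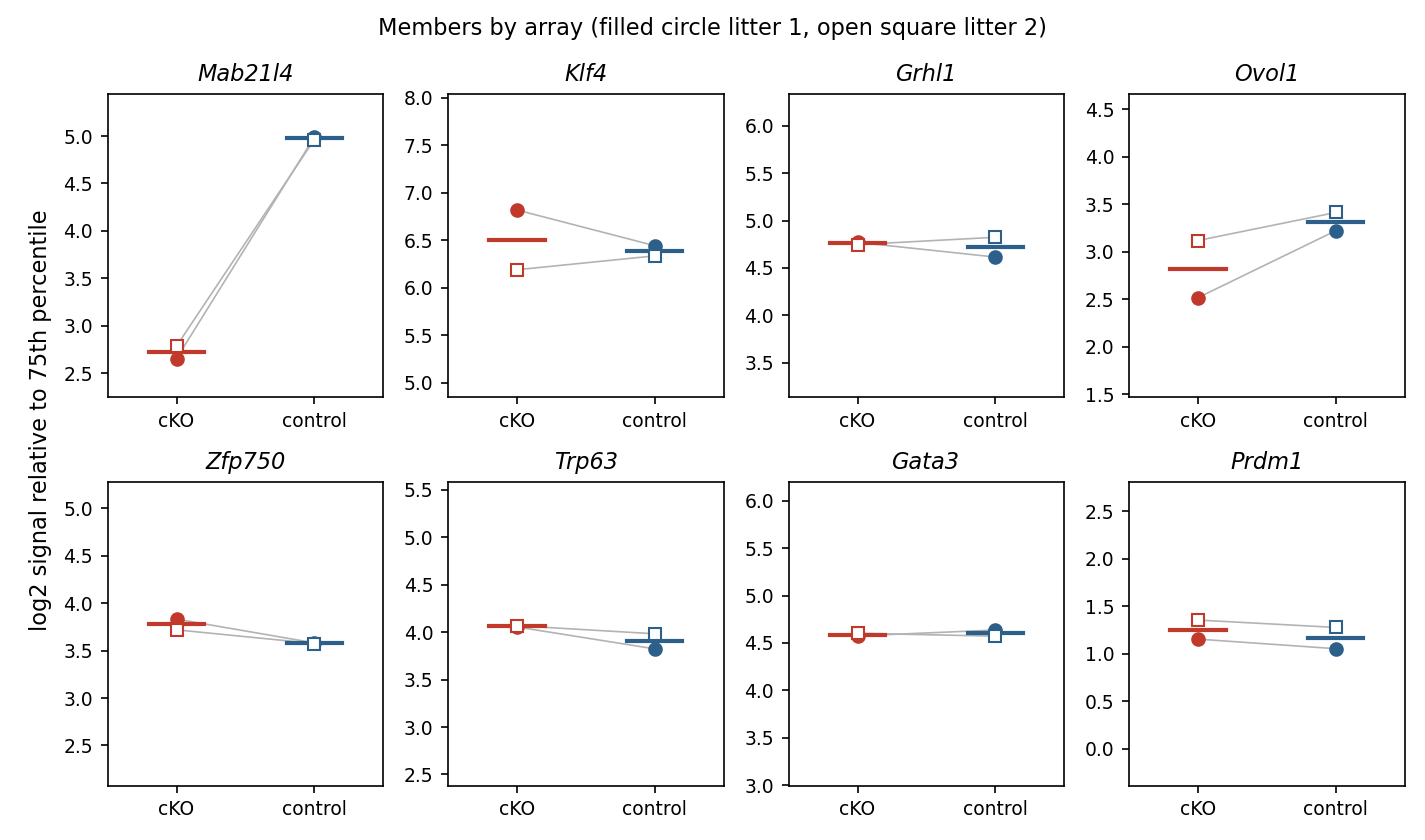
Level of each measured member on the 4 arrays (log2 signal relative to the array's 75th percentile), cKO left and control right, with filled circles for litter 1, open squares for litter 2, bars for group means and grey lines joining littermates. Every panel spans the same number of log2 units: the Mab21l4 means lie at 2.72 in cKO and 4.98 in control skin, while those of Gata3 lie at 4.59 and 4.60.

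The next largest difference among the members was that of Ovol1, a zinc finger factor that in mice slows the division of keratinocytes as they leave the basal layer. Its brighter probe (A_52_P441954, chromosome 19, 5549209 to 5549268, mm9) read 2.52 and 3.12 in cKO skin, against 3.22 and 3.41 in control skin. The 2 cKO values lay apart from each other, and the higher of them stood just below the lower control. The difference was -0.50 ± 0.23 (SE), with -0.71 in litter 1 and -0.30 in litter 2. The second probe (A_51_P225827, 5550257 to 5550316) read 1.28 and 1.44 in cKO skin, against 1.39 and 1.43 in control skin. Here the groups overlapped and the difference was -0.05, so the 2 probes did not give the same picture of Ovol1. The difference of the brighter probe came to -0.20 without cKO replicate 1 and -0.80 without cKO replicate 2.

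Klf4 encodes a zinc finger factor that mice need to acquire the skin barrier. Its probe (chromosome 4, 55540833 to 55540892) read 6.82 and 6.19 in cKO skin, against 6.44 and 6.33 in control skin. The cKO values lay on either side of the controls, with the litters going opposite ways, at 0.38 in litter 1 and -0.15 in litter 2. The mean difference of 0.12 ± 0.23 (SE) was smaller than its error.

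Grhl1 encodes a grainyhead factor that in mice controls desmoglein 1 genes of the desmosome. Its brighter probe (chromosome 12, 25301994 to 25302053) read 4.77 and 4.75 in cKO skin, against 4.61 and 4.82 in control skin, a difference of 0.04 ± 0.11 (SE). The second Grhl1 probe, at 25302082 to 25302142, differed by -0.06. Both probes gave overlapping groups, with a positive difference in litter 1 and a negative one in litter 2.

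Zfp750 was the member with the most positive difference. Its probe (chromosome 11, 121372670 to 121372729) read 3.83 and 3.72 in cKO skin, against 3.58 and 3.57 in control skin. Both cKO arrays stood above both controls, by 0.25 in litter 1 and 0.14 in litter 2. The difference was 0.20 ± 0.09 (SE), or 115% of control.

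Trp63 was read by 3 probes on chromosome 16 (mm9). The brightest, at 25892012 to 25892071, read 4.05 and 4.07 in cKO skin, against 3.82 and 3.98 in control skin. The groups did not overlap at this probe, and the difference was 0.16 ± 0.10 (SE). Another probe (A_52_P17264) reads a spliced stretch, as its 60 bases span 778 bases of the genome (25865388 to 25866165), and it is printed here on the plus strand because its sign was the other way.
Trp63: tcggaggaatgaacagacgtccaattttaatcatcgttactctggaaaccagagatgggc
This probe read -2.66 and -2.44 in cKO skin, against -2.57 and -2.22 in control skin. Its difference was -0.16, and its groups overlapped. The third Trp63 probe, at 25884684 to 25884743, was not well above background on any array.

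Gata3 encodes a zinc finger factor that in mice shapes the inner root sheath of the hair and also T cells. Its probe (chromosome 2, 9778983 to 9779042) read 4.57 and 4.60 in cKO skin, against 4.64 and 4.57 in control skin. The groups overlapped, and the difference of -0.02 ± 0.08 (SE) was the smallest among the members. Prdm1 encodes BLIMP1, a repressor active in the granular layer and the sebaceous gland of mice, and also in plasma cells. Its probe (chromosome 10, 44157291 to 44157350) read 1.15 and 1.35 in cKO skin, against 1.05 and 1.28 in control skin. The groups overlapped, although the difference was positive in both litters (0.10 and 0.08), with a mean of 0.09 ± 0.13 (SE).

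**Figure D2:**
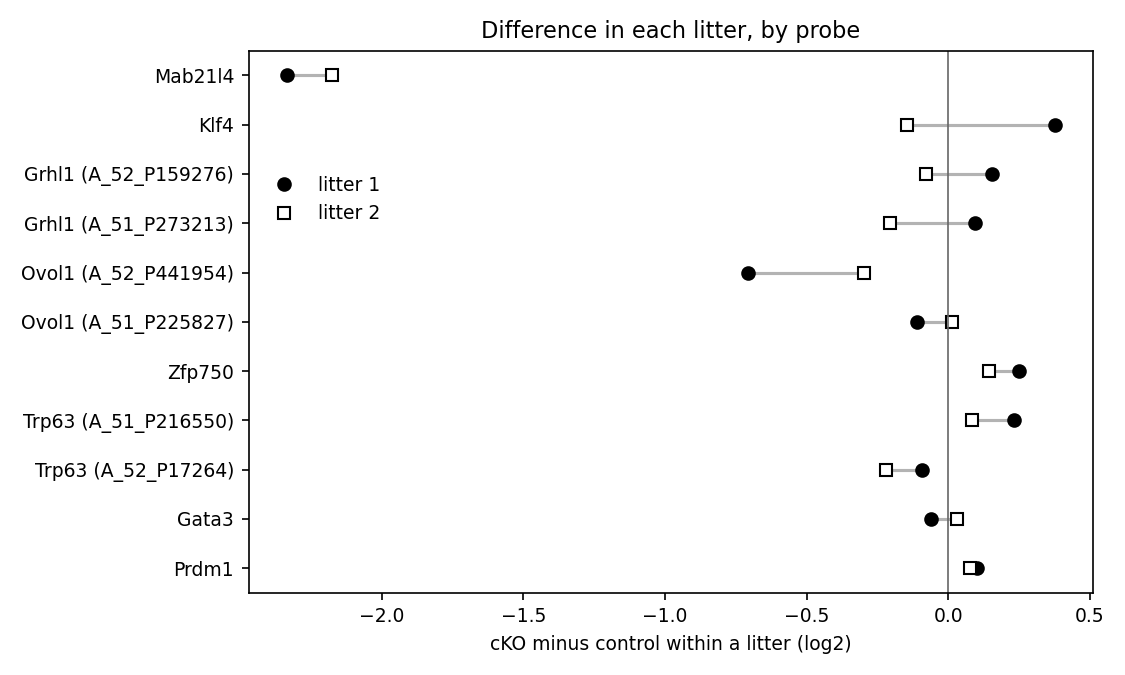
Difference between the cKO and the control littermate in litter 1 (filled circles) and litter 2 (open squares) for each of the 11 member probes above background, in log2 units. Mab21l4 stands at -2.33 and -2.18, all other probes lie between -0.71 and 0.38, and the paired probes of Ovol1 and of Trp63 do not coincide.

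Of the 8 measured members, 2 (Mab21l4 and Ovol1) were lower in both litters, against 32.1% of all genes, and 3 (Zfp750, Trp63 and Prdm1) were higher in both, against 40.4% of all genes. By 0.5 or more in both litters only Mab21l4 was lower, against 2.74% of all genes. Klf4, Grhl1 and Gata3 went opposite ways in the litters, as did 27.5% of all genes. Both cKO arrays lay below both controls for 2 members (21.4% of all genes) and above them for 2 (28% of all genes). The members' median difference was 0.06, beside 0.03 over all genes. At an adjusted p of 0.05 in limma, 53 of all genes passed (0.341%), 42 of them lower in cKO skin (0.27%) and 11 higher (0.0707%). Of the members, 1 (Mab21l4) was among the 42 and 0 were among the 11, which is a count and no test, as these values chose the members. An unadjusted p under 0.05 was reached by 2510 of all genes (16.1%), 1262 of them lower (8.12%) and 1248 higher (8.03%) in cKO skin. When litter entered the model as a replicate block, 0 genes passed (lowest adjusted p = 0.0567, limma), while 3706 had an unadjusted p under 0.05. Leaving out either control array, which assumes that the lone control varies like the cKO arrays, likewise left 0 genes, with 1840 and 1749 under the unadjusted p (without replicate 1 and without replicate 2).

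The comparison of litter 2 with litter 1 is balanced over the genotypes and was not used to choose the members. It sets 2 litters side by side, with 1 animal of each genotype in each. It cannot measure how far families of mice vary in general, or part litter from single animals with certainty. In limma, with genotype in the model, 0 of 15550 genes passed an adjusted p of 0.05 (0% of all genes), and 2502 had an unadjusted p under 0.05 (16.1%). In both genotypes, 3 members (Ovol1, Prdm1 and Trp63) were higher in litter 2, against 37% of all genes, and 2 (Zfp750 and Klf4) were lower, against 30.3%. None of the 8 members passed the test, with adjusted p between 0.299 and 0.902. Ovol1 was higher in litter 2, by 0.60 between the cKO animals and 0.19 between the controls, for a mean difference of 0.40 ± 0.13 (SE; adjusted p = 0.317). Prdm1 measured 0.20 and 0.22 in the same order, a mean of 0.21 ± 0.06 (SE; adjusted p = 0.299). For Klf4 the difference was -0.63 between the cKO animals and -0.11 between the controls (adjusted p = 0.374). Mab21l4 differed by 0.13 between the cKO animals and -0.03 between the controls, a mean of 0.05 ± 0.08 (SE; adjusted p = 0.745).

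Other transcription regulators of the epidermis were set beside the members. Of 40 listed, 38 were measured, and 0 passed limma's test between the genotypes in either direction, while 3 lower and 6 higher ones had an unadjusted p under 0.05. In both litters 10 were lower and 15 higher, and the median difference was 0.04. Elf3, an ETS factor of epithelia, was not well above background in control skin and its level in cKO skin was higher by at least 1.56-fold (adjusted p = 0.118, limma). That limit holds for the processed signal, and with normexp background correction and quantile normalization (called normexp from here on) the Elf3 difference was 0.14. Trps1, a GATA-type repressor of the hair follicle, differed by 0.46 ± 0.11 (SE; adjusted p = 0.192, limma). Since AP-1 letters were shown above, those genes of its subunits that were among the 38 were looked at after their values were known. Junb measured -0.42, Jun -0.22, Fosl1 0.09 and Fosl2 0.03 (adjusted p between 0.195 for Junb and 0.889 for Fosl2, limma). Genes of other AP-1 subunits were not among the 38. A part of AP-1 in the level of Mab21l4 was not tested. The differences of the 37 genes other than Elf3 lay between -0.42 and 0.46.

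**Figure D3:**
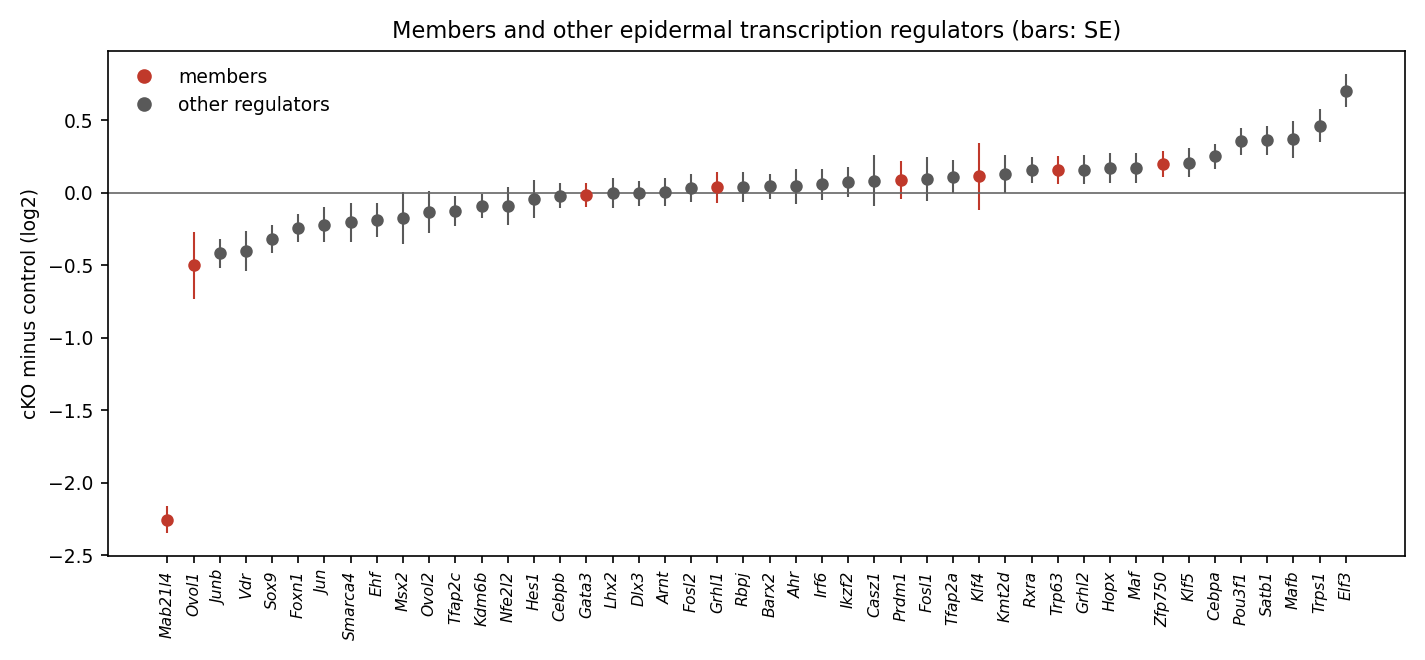
Difference between cKO and control skin (log2, points with SE, n = 2 arrays per genotype) for the 8 measured members in red and 38 other transcription regulators of the epidermis in grey, ordered by size. Mab21l4 lies at -2.25 and the others between -0.50 and 0.46, apart from Elf3, drawn at its measured 0.71 although its control signal was not well above background.

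Genes related to the members by family were compared next. Of the other genes with a Mab-21 domain, 6 of 11 were measured and 0 passed limma's test (2 higher at an unadjusted p under 0.05), with 0 lower and 3 higher in both litters (median 0.15). Among them, Mb21d2 differed by 0.30 ± 0.09 (SE; adjusted p = 0.243, limma) and Itpripl1 by 0.36 ± 0.11 (SE; adjusted p = 0.245, limma). Of the paralogues of the other members, 24 of 32 were measured and 0 passed (2 lower and 3 higher at an unadjusted p under 0.05), with 3 lower and 11 higher in both litters (median difference 0.06). Prdm8, a PR domain gene like Prdm1, measured -1.15 and -1.16 in cKO skin, against -0.33 and -0.32 in control skin. Its groups stood well apart, at a difference of -0.84 ± 0.08 (SE; adjusted p = 0.0534, limma). Trp73, the p53-family relative of Trp63, measured -0.71 and -0.56 in cKO skin, against -1.58 and -1.53 in control skin. That difference of 0.92 ± 0.10 (SE; adjusted p = 0.0628, limma) did not pass either, and it was 0.54 with the mean of the Trp73 probes. The paralogues ranged from -1.30 to 0.92, and the lowest, named after its value was seen, was Prdm16. It read -2.56 and -6.54 in cKO skin, against -2.60 and -3.89 in control skin, and was well above background on 1 of the 2 cKO arrays.

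RNA levels of genes tied to the members through protein partners or their pathways were compared as well. Of the RET and CACUL1 genes, 6 of 10 passed the filter on dim probes, Ret itself was not among them, and 0 passed limma's test at an adjusted or an unadjusted p of 0.05. In both litters 1 was lower and 2 higher, and the median difference was 0.06. Gfra3, a co-receptor of RET, differed by 0.40 ± 0.20 (SE; adjusted p = 0.427, limma) and Nrtn, which encodes the RET-activating ligand neurturin, by 0.22 ± 0.11 (SE; adjusted p = 0.442, limma). Cacul1, named for its protein's tie to MAB21L4 after its value was seen, stood at -0.01. The Gfra3 difference was 0.67 without control replicate 1 and 0.13 without control replicate 2. Of 11 cofactors, all measured, 0 passed (1 higher at an unadjusted p under 0.05), with 3 lower and 6 higher in both litters and a median difference of 0.11. Ripk4, a kinase of keratinocyte differentiation, differed by 0.27 ± 0.09 (SE; adjusted p = 0.290, limma) and Lmo4, a partner of GRHL3 in mice, by 0.17 ± 0.09 (SE; adjusted p = 0.420, limma).

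Genes of later differentiation had differences of both signs. Of 40 terminal differentiation genes, all measured, 0 passed limma's test over all genes, while 4 lower and 18 higher ones had an unadjusted p under 0.05. In both litters 12 were lower and 22 higher, with a median of 0.23, and the differences ranged from -2.91 to 1.74. Lce3c, a late cornified envelope gene, read -0.68 and -1.44 in cKO skin, against 2.00 and 1.70 in control skin. It was the lowest of the list, at -2.91 ± 0.29 (SE; adjusted p = 0.0570, limma). Rptn (repetin), another envelope gene, differed by 0.79 ± 0.09 (SE; adjusted p = 0.0635, limma), or 0.49 with normexp. Of 20 p63 targets and basal genes, 0 passed (1 lower and 5 higher at an unadjusted p under 0.05), with 4 lower and 13 higher in both litters (median difference 0.09). Igfbp3 differed by 0.36 ± 0.09 (SE; adjusted p = 0.195, limma), and Sfn, which encodes the 14-3-3 protein stratifin, by -0.30 ± 0.09 (SE; adjusted p = 0.230, limma). The loci of the late envelope genes are clustered and alike in sequence, and matches of their probes to related copies were not searched.

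Cell markers are given beside the members, and their part in the members' values was not tested. In each marker list 0 genes passed limma's adjusted test. An unadjusted p under 0.05 was reached by 2 lower and 3 higher keratinocyte markers, 3 lower inner root sheath, 6 lower T cell, 1 lower sebaceous, 1 lower endothelial, 6 higher fat cell, 5 higher muscle and 0 macrophage markers. Keratinocyte markers were all measured (11 of 11), with summed levels of 10.30 and 10.35 in cKO skin, against 10.10 and 10.17 in control skin. Their median difference was 0.09, and Dsg3 stood at -0.85 ± 0.09 (SE; adjusted p = 0.0635, limma) and Krt1 at 1.74 ± 0.30 (SE; adjusted p = 0.127, limma). With normexp Dsg3 stood at -0.47. For the tissues in which Gata3 also acts, 5 of 6 measured inner root sheath markers were lower in both litters (median difference -0.18). Their summed level was 10.98 and 11.03 in cKO skin, against 11.16 and 11.22 in control skin. Krt26 differed by -0.93 ± 0.09 (SE; adjusted p = 0.0534, limma) and Krt27 by -0.63 ± 0.08 (SE; adjusted p = 0.0854, limma). Of 10 T cell and innate lymphoid markers, 6 were lower in both litters (median difference -0.49, or -0.34 with Cd2, not well above background in cKO skin, at its limit) and their summed levels were 4.41 and 3.96 in cKO skin, against 4.36 and 3.98 in control skin. Cd3g measured -0.76 ± 0.13 (SE; adjusted p = 0.122, limma) and Itgae -0.59 ± 0.10 (SE; adjusted p = 0.123, limma), while with normexp these were -0.31 and -0.26.

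Prdm1 is also known from sebaceous glands, plasma cells and macrophages. Of 7 sebaceous gland markers, 3 were lower in both litters (median difference -0.34) and their summed levels were 6.93 and 6.87 in cKO skin, against 7.05 and 7.06 in control skin. Soat1 differed by -0.56 ± 0.16 (SE; adjusted p = 0.236, limma) and Plin2 by -0.34 ± 0.15 (SE; adjusted p = 0.375, limma). None of the 7 B and plasma cell markers passed the filter on dim probes. Of 7 macrophage and monocyte markers, 6 were higher in both litters (median difference 0.33) and their summed levels were 4.69 and 4.53 in cKO skin, against 4.42 and 3.81 in control skin. Cd14 differed by 0.33 ± 0.14 (SE; adjusted p = 0.357, limma) and Lyz2 by 0.57 ± 0.24 (SE; adjusted p = 0.358, limma). Endothelial markers, a cell type in which KLF4 also acts, had a median of -0.07 over 8 genes, with 4 lower and 1 higher in both litters. Their summed levels were 3.04 and 2.99 in cKO skin, against 3.21 and 2.92 in control skin, so the litters went opposite ways. Tek stood at -0.63 ± 0.14 (SE; adjusted p = 0.172, limma) and Kdr at -0.45 ± 0.17 (SE; adjusted p = 0.320, limma), and Tek at -0.32 with normexp.

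Fat and muscle lie beneath the dermis. Of 9 fat cell markers, 7 were higher in both litters (median difference 0.64) and their summed levels were 8.75 and 8.61 in cKO skin, against 8.51 and 8.07 in control skin. Retn differed by 1.68 ± 0.15 (SE; adjusted p = 0.0534, limma) and Thrsp by 0.89 ± 0.08 (SE; adjusted p = 0.0534, limma). Of 10 skeletal muscle markers, 8 were higher in both litters (median difference 0.42) and their summed levels were 9.32 and 9.33 in cKO skin, against 9.21 and 8.78 in control skin. Mb differed by 0.84 ± 0.10 (SE; adjusted p = 0.0796, limma) and Myh2 by 0.75 ± 0.13 (SE; adjusted p = 0.129, limma).

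Genes with the profile most like that of Mab21l4 were found by the distance between profiles over the 4 arrays, each centred on its own mean. As Mab21l4 was chosen for its difference, its neighbours share that difference by construction, and no test is given. The nearest was Fgf5, a growth factor that ends hair growth in mice, at a distance of 0.148 log2 units. It read -0.10 and 0.00075 in cKO skin, against 2.04 and 2.13 in control skin. Trpv6, an epithelial calcium channel, followed at 0.159, with -0.92 and -0.99 in cKO skin, against 1.41 and 1.34 in control skin. Both genes had low and close cKO values and high and close control values. Slc30a3, a zinc transporter gene, came next at 0.236, although it was not well above background in cKO skin and its level there is only known to be at least 1.51-fold lower. Dio3, which encodes a thyroid hormone deiodinase, lay at 0.264 and Chrna4, a nicotinic receptor subunit gene, at 0.269. With normexp the difference of Mab21l4 was -2.24, while that of Slc30a3 was -0.17 and that of Chrna4 -0.58. With quantile normalization alone, Slc30a3 stood at -2.36 and Chrna4 at -2.04. Normexp also adds an offset to the signals, and which of its steps made these 2 differences smaller was not tested. In all, 68 genes lay within 1 log2 unit of Mab21l4.

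**Figure D4:**
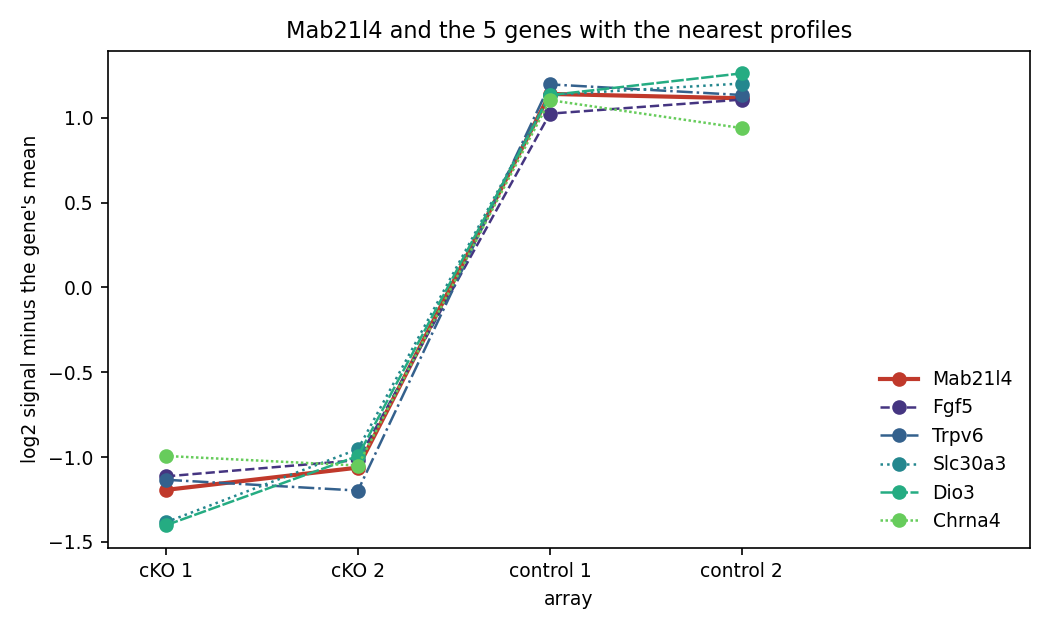
Log2 signal minus the gene's own mean on each of the 4 arrays for Mab21l4 (thick red line) and the 5 genes at the smallest distance from it. All 6 lines are low on both cKO arrays and high on both control arrays, and the cKO points of Slc30a3 are not well above background.

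The centred profiles of the other members lay close to those of most genes, so their nearest profiles say little about them. Within 1 log2 unit lay 13575 genes for Ovol1 and 15077 for Gata3. The nearest gene was Srms for Ovol1, Zcchc18 for Klf4, Hnrnpf for Grhl1, St7l for Zfp750, Suv39h1 for Trp63, Csnk1d for Gata3 and Rlf for Prdm1. Their distances ranged from 0.00673 log2 units for Csnk1d to 0.0911 for Srms.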

How the data were processed

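RNA of 4 biopsies was hybridised to the 4 one-colour Agilent arrays of 1 slide (design 014868, probe positions in mm9, per the file headers), read in a single scan. The deposited scanner files give each spot's intensity. From them came the processed signal, which the authors' Feature Extraction software had background-subtracted and detrended. The version is 10.5 in the submitters' processing notes and 10.7.3.1 in the file headers. The authors' series table holds log2 values, which matched the scanner values after scaling to the 75th percentile and centring by probe. Its correlation with them was at least 0.99999, with column medians of -0.06 and 0.08 in cKO replicates 1 and 2, and of -0.08 and 0.06 in the control ones. It served as an alternative.

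Here, log2 processed signals were scaled by each array's 75th percentile (751 to 784) over 43379 gene spots, of which 53.7% to 56.6% were well above background and 0 saturated. Outlier spots (51 to 66 per array) and control spots were left out. Probes were kept if both arrays of 1 genotype or more read well above background (22188 of 41174), and each gene took its brightest probe (15550 genes). If no array of a genotype did so for a gene, the fold is a lower limit. It sets the brighter mean against the higher of the dim signal and the lowest signal well above background on each array. Probes were named by accession (26690), symbol (5189) or synonym (952) in RefSeq tables of GRCm38.p6, and 8343 kept the name in the files.

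The comparison of genotypes used limma 3.58.1 (R 4.3.3), two-sided, with Benjamini-Hochberg adjustment over all genes and a threshold of 0.05. The replicate numbers pair the animals, since the labels give the litter, and deviations from the group means correlated at 0.35 across genes between the genotypes. The series text mentions the pairs without a model, so the litter block was an alternative. The litter comparison had genotype in the model. P-values measure the spread between single animals, and precision is limited by the 4 arrays. The test was checked on simulated data with independent noise on each array and no litter effect. That check does not cover the pairing of littermates. The members and gene lists were chosen with earlier results of these data known. Named genes were all members, Adam17, the 5 profiles nearest to Mab21l4 and the 3 nearest to each other member (1 of them printed) and, of each list, up to 4 that passed or else the 2 with the smallest p. Junb, Jun, Fosl1, Fosl2, Cacul1 and Prdm16 fall outside that rule and were added after their values were seen.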

Additional observations from a re-analysis of the deposited data

How the results depend on the processing

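Alternatives were the background correction, scaling, dim-probe filter, probe choice, the authors' series values, litter as a replicate block and leaving out each array. Genes that passed between cKO and control skin numbered 42 lower and 11 higher. They came to 93 and 27 with normexp and quantile normalization, 77 and 30 with the array median as scale, 57 and 23 with quantile normalization alone, 23 and 5 with probes well above background on all arrays, and 0 and 0 without the filter or with the replicate block. Without the filter 2079 genes, and with the block 3706, had an unadjusted p under 0.05 in limma. Leaving out 1 array gave 0 to 29 lower and 0 to 9 higher. Over 12 alternatives the difference of Mab21l4 lay between -2.32 and -2.19, that of Ovol1 between -0.80 and -0.20, of Zfp750 between 0.14 and 0.25 and of Trp63 between 0.00097 (mean of its probes) and 0.24. For Mab21l4, with 1 probe, the filter settings, the probe mean and the litter block could not move the value from -2.25. The sign turned for Klf4 (-0.20 without cKO replicate 1), for Gata3 (0.02 without control replicate 1), for Grhl1 (-0.07 without control replicate 1, -0.0084 with the mean of its probes) and for Prdm1 (-0.02 without control replicate 1, -0.01 without cKO replicate 2). Members lower in both litters numbered 2, or 3 with normexp, which added Gata3, and members higher in both numbered 3, or 2 with the mean of the probes of a gene, which dropped Trp63. Leaving out an array gives no such count, as 1 litter then has no pair. Between litters, 292 genes passed with normexp and 0 in the other alternatives, and 0 members in those that kept genotype in the model. Of the companion lists' genes, 5 passed with normexp, 3 with either other scaling and 2 without cKO replicate 1. The 5 with normexp were named above. Prdm8 stood at -0.59 (adjusted p = 0.0371, limma) and Lce3c at -2.51 (adjusted p = 0.0272, limma). Krt26 stood at -0.95 (adjusted p = 0.0238, limma), Retn at 1.33 (adjusted p = 0.0244, limma) and Thrsp at 0.67 (adjusted p = 0.0328, limma). The cause of these shifts was not tested.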
